A study of Homo sapiens with 6 samples.

Results

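The YTH domain readers are the proteins that bind N6-methyladenosine (m6A), the most common internal mark of mRNA, through a pocket of the YTH domain. YTHDF1, YTHDF2 and YTHDF3 act mainly in the cytoplasm, where they are known for effects on translation and, above all for YTHDF2, on mRNA decay through the CCR4-NOT deadenylase. YTHDC1 is nuclear and is known for effects on splicing and on mRNA export, and YTHDC2 is an RNA helicase best known for its role in meiotic germ cells. The readers were taken as every row of the deposited mRNA tables whose symbol was YTHDF1, YTHDF2, YTHDF3, YTHDC1 or YTHDC2, which gave 33 of 92866 transcripts and 5 of 19871 symbols. Of these 33 transcripts, 28 had an Ensembl identifier and 5 had been assembled by the authors from the reads. YTHDF1 had 3 listed transcripts, YTHDF2 had 6, YTHDF3 had 12, YTHDC1 had 8 and YTHDC2 had 4.

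RNA came from HCT116 cells, an established colorectal cancer line, sequenced as strand-specific libraries. The labels give 3 groups of 2 libraries: NC, a negative control; GAS5, transfected with a plasmid of the lncRNA GAS5 according to the treatment note, although the siRNA label lists all 3 groups; and siYAP, transfected with YAP-specific siRNA. All 3 groups are the same line in the same medium, and the labels do not say whether the libraries of a group came from separate cultures. The tables hold 1 mean per group and transcript, so there is no spread between replicates, no SD and no test, and each treatment was set against the same NC mean. The summed mean counts were 27206123 in NC, 25521577 with GAS5 and 26298036 with siYAP. The count of YAP1, the target of the siRNA, summed to 3480 in NC, 2679 with GAS5 and 1444 with siYAP, a log2 fold change of -0.26 in GAS5 and -1.18 in siYAP. GAS5 itself is not an mRNA and was not analysed here. Of the 8 epithelial markers, EPCAM, CDH1, KRT8, KRT18 and KRT19 were at 33.0 FPKM or more in every group, CDX2 was between 3.52 and 4.34, VIL1 was at 0.075 or less and CDX1 was listed at 0. Of 6 markers of leukocytes, endothelium and fibroblasts, 5 were at 0.035 FPKM or less and COL1A1 was between 2.20 and 3.33.

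The sequences show places where the coding parts of the 2 main YTHDC1 forms, and of short forms of YTHDF1 and YTHDF2, differ from other forms. Listed forms can also differ outside these places, at their 5′ and 3′ ends. The sequences were read from GENCODE 29 transcripts on GRCh38, in the sense of the mRNA, 5′ to 3′. YTHDC1-207 (ENST00000579690) holds a coding exon of 54 bases at chr4:68332794-68332847 on the minus strand that YTHDC1-202 (ENST00000355665) skips, and the capitals mark that exon.
YTHDC1-207: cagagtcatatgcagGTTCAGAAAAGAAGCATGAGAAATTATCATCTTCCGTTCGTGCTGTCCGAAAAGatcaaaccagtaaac
YTHDC1-202: cagagtcatatgcagatcaaaccagtaaac

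A second difference between the same forms lies at chr4:68318730-68318753, where YTHDC1-207 uses a longer version of a coding exon, and the capitals mark the 24 added bases.
YTHDC1-207: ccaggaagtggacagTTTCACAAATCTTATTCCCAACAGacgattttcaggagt
YTHDC1-202: ccaggaagtggacagacgattttcaggagt

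Both stretches are whole numbers of codons, 18 and 8, with 0 in-frame stops in either, so that YTHDC1-202 encodes 709 residues and YTHDC1-207 encodes 735. These 2 forms differ at the 5′ end as well, where YTHDC1-202 has 336 bases before its coding stretch and YTHDC1-207 has 0. YTHDF2 starts its reading frame at 2 places: in YTHDF2-201 (ENST00000373812) at chr1:28737121, and in YTHDF2-208 (ENST00000541996), which holds the first start but skips the coding exon of 25 bases at chr1:28737658-28737682 after it, at chr1:28742421 within the long coding exon. The capitals mark the start codons.
YTHDF2-201: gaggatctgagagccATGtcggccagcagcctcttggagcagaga
YTHDF2-208: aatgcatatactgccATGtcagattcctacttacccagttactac

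YTHDF1 and YTHDF3 each have a listed form without the long coding exon that carries most of the protein. In YTHDF1 this exon has 1521 bases at chr20:63202287-63203807 on the minus strand. In YTHDF1-202 (ENST00000370339) the bases before it run into the exon, of which the first 15 are in capitals, and in YTHDF1-201 (ENST00000370334) the same bases, here in capitals, run straight into the last coding exon.
YTHDF1-202: ggacagtcaaatcagAGTAACAGTTACCCC
YTHDF1-201: GGACAGTCAAATCAGgaacggcagagtcga

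**Figure D1:**
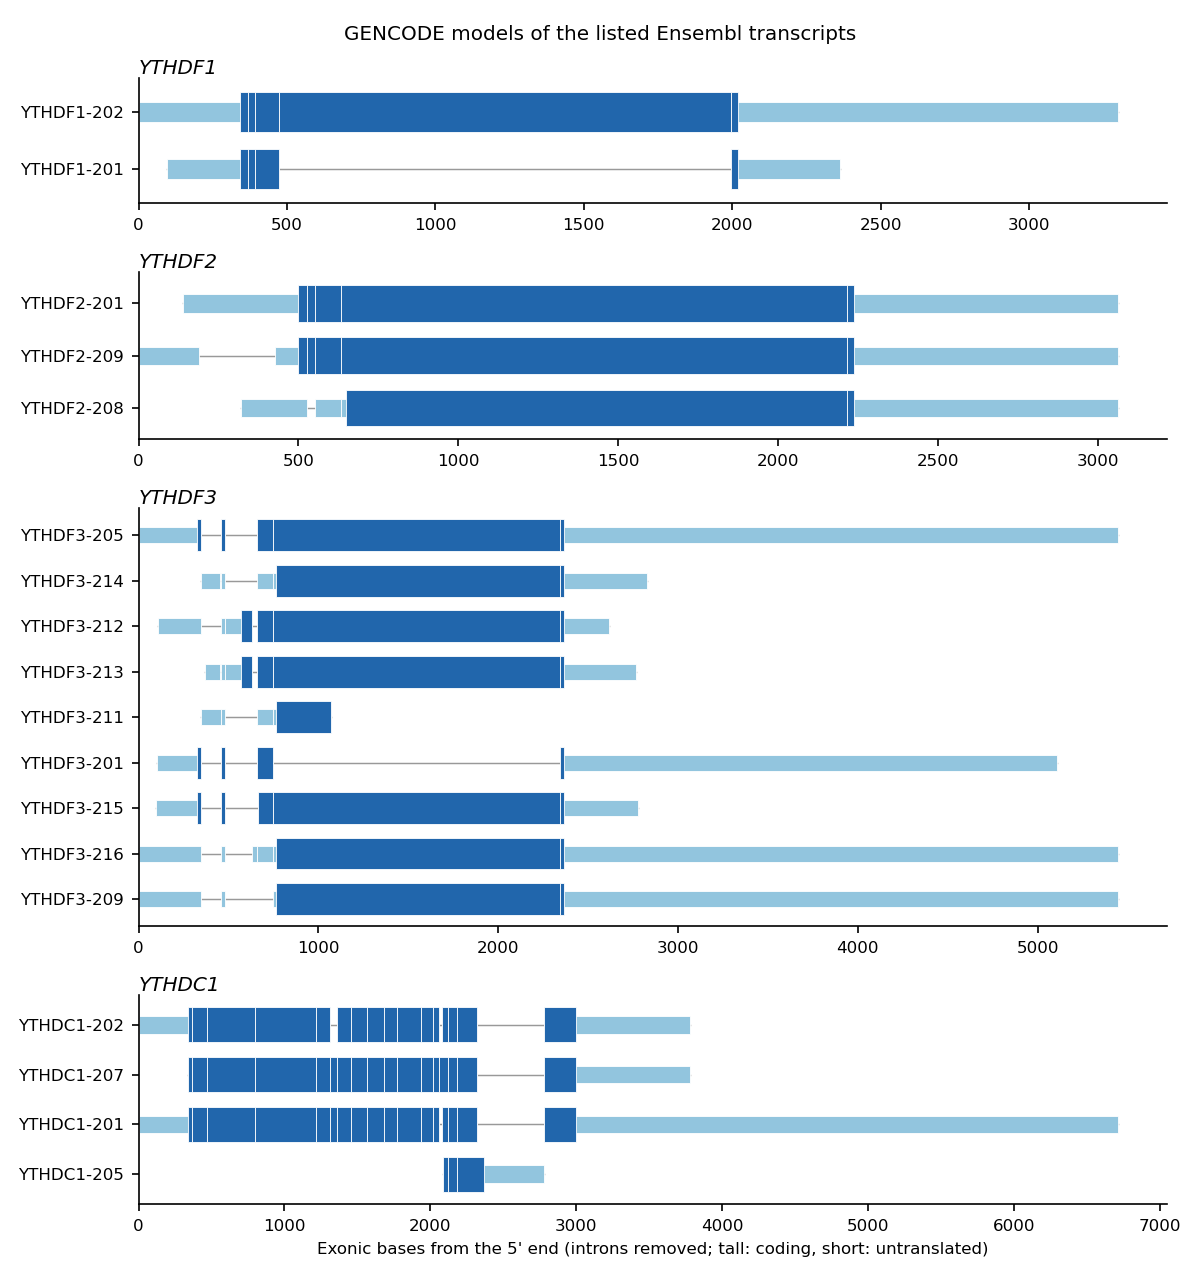
GENCODE 29 models of the Ensembl transcripts of YTHDF1, YTHDF2, YTHDF3 and YTHDC1 with over 0.5% of the gene's count in a group, as exonic bases from the 5′ end with introns removed, with tall dark boxes for coding and short pale boxes for untranslated sequence and grey lines for absent stretches. YTHDF1-201 and YTHDF3-201 lack the long coding exon, and YTHDF2-201 and YTHDF2-209 share 1 reading frame of 1737 coding bases.

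The summed count of each reader was split among its transcripts by an estimate, and the data show which part is counted and which is estimated. Multiplied by the 2 libraries behind each mean, all 15 reader sums, 5 genes in 3 groups, were whole reads within 0.05 reads, whereas only 1 of 69 single transcript values above 0 was whole within 0.015 reads. The sum of a gene is therefore a read count, and the share of a transcript is an estimate of how those reads divide. Across all 10970 symbols with a sum of at least 100 in every group, 90.5% of group sums were whole within 0.05 reads. With Ensembl transcripts alone, 1 of 6 sums of YTHDF1 and YTHDF2 was whole. The 5 readers shared no stretch of 31 bases with each other in any of their listed Ensembl transcripts. Within a gene, the stretches of 31 bases found in 1 listed Ensembl transcript only were 2582 of 3271 in YTHDF1-202 and 3912 of 6286 in YTHDC2-201. They were 160 of 2895 in YTHDF2-201, 28 of 3214 in YTHDC1-202 and 50 of 2953 in YTHDC1-207. In YTHDF3-205 they were 1 of 5133, and in YTHDF2-209 0 of 2795. The assembled forms, whose sequences are not known here, could not be included in these counts. Most of the YTHDF1 count was given to an assembled form. How well reads of YTHDF1-202 can be told from that form is therefore not known. The 95% intervals of shares and fold changes given below are Wilson intervals on the doubled mean counts. Those of summed FPKM are Poisson intervals on the doubled mean counts. What they cover is counting error, neither the spread between cultures nor the error of dividing reads among forms.

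The level of a reader per length was its summed FPKM, fragments per kilobase scaled to library size, where the length is the full annotated length of each form. YTHDF2 was the most abundant reader in all 3 groups, at 44.7 FPKM in NC, 49.1 with GAS5 and 47.6 with siYAP, above 88.7% to 89.7% of all symbols listed above 0. YTHDC2 was the least abundant, at 6.27 FPKM in NC, 6.19 with GAS5 and 5.00 with siYAP. YTHDC1 stood at 21.7 FPKM in NC, 23.3 with GAS5 and 17.1 with siYAP. YTHDF1 stood at 19.7, 20.6 and 21.6 FPKM in the same order, and YTHDF3 at 18.0, 21.0 and 14.98. The 3 readers in the middle changed places: YTHDC1 was the second of the 5 in NC and GAS5 and the third in siYAP, where YTHDF1 was the second. In GAS5 the 95% counting intervals of YTHDF3 (20.3 to 21.7 FPKM) and YTHDF1 (19.9 to 21.3) overlapped, and the order of these neighbours was not resolved. In NC and siYAP no neighbouring intervals overlapped. RNA of all cells of a culture was pooled, so fewer cells with a transcript and less of it per cell cannot be told apart.

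**Figure D2:**
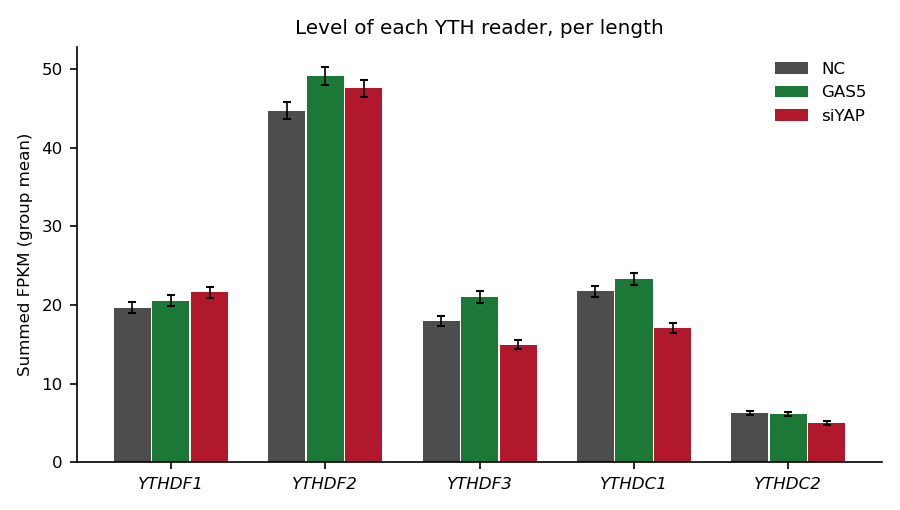
Summed FPKM of each reader in NC, GAS5 and siYAP, 1 bar per group mean, with error bars for the 95% Poisson interval of the reads behind the mean of 2 libraries, which covers counting error only. The error bars weigh every read of a gene alike. YTHDF2 stands at 44.7 to 49.1 FPKM and YTHDC2 at 5.00 to 6.27, with the other readers between them.

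None of the 5 gene sums passed a 2-fold difference in either comparison. The background was 3.09% of 13379 gene sums for GAS5 against NC and 2.26% of 13308 for siYAP against NC. YTHDF1, which is best known for promoting translation, summed to 1693 mean counts in NC, 1632 with GAS5 and 1804 with siYAP, a log2 fold change of 0.07 in GAS5 (95% counting interval -0.0037 to 0.14) and 0.18 in siYAP (0.11 to 0.25). YTHDF2, the decay factor, summed to 3452 in NC, 3531 with GAS5 and 3518 with siYAP, a log2 fold change of 0.15 (0.10 to 0.20) and 0.11 (0.06 to 0.16). Both sums lay slightly above NC after scaling in both treated groups, and no change exceeded 1.13-fold. With Ensembl forms alone, which leaves out the assembled forms that hold much of both genes, the log2 fold change was -0.10 in GAS5 and 0.41 in siYAP for YTHDF1 and -0.072 and -0.12 for YTHDF2, so that 3 of these 4 values lay below 0.

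The other 3 readers were lower in siYAP. YTHDF3, a cytoplasmic partner of YTHDF1 and YTHDF2, summed to 1544 in NC, 1618 with GAS5 and 1146 with siYAP, with log2 fold changes of 0.19 in GAS5 (0.11 to 0.26) and -0.34 in siYAP (-0.42 to -0.27). YTHDC1, the nuclear reader, summed to 1887 in NC, 1928 with GAS5 and 1416 with siYAP, with log2 fold changes of 0.15 (0.08 to 0.21) and -0.33 (-0.40 to -0.26). YTHDC2, the helicase, summed to 1086 in NC, 996 with GAS5 and 840 with siYAP, with log2 fold changes of -0.01 (-0.09 to 0.08) and -0.28 (-0.38 to -0.19). In siYAP these 3 sums were 0.787, 0.796 and 0.821 of the NC level. Such differences were common in the siYAP comparison, where 15.3% of gene sums lay below the value of YTHDF3, 16.4% below that of YTHDC1 and 19.7% below that of YTHDC2. The pair of log2 fold changes was within 0.05 of that of YTHDF3 in 88 of 13210 other genes and of YTHDC1 in 99, and for YTHDC2, YTHDF2 and YTHDF1 the numbers were 175, 228 and 264. As a description of the promoters, the letters GGAATG, the core of sites bound by the TEAD partners of YAP, were searched on both strands of the 300 bases around each start (RefSeq, GRCh38.p14). They stood in 0 of the 4 reader promoters in that table and in 14.03% of all 35116 promoters, and YTHDF3 was not among the 4.

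The division of each gene among its transcripts was compared by the isoform share distance, which is the smallest share of a gene's count, in percentage points, that has to move between transcripts to turn the shares of one group into those of another. No reader reached 20 points in any of the 3 pairs of groups. Over 9907 symbols with at least 2 listed transcripts and a sum of at least 100 in every group, 8.3% reached 20 points between GAS5 and NC, 8.72% between siYAP and NC and 9.08% between GAS5 and siYAP. Among the 4740 of these symbols with at least 5 transcripts above 0, which include YTHDF2, YTHDF3 and YTHDC1, the percentages were 11.8%, 12.6% and 13.3%. The median distance over all these symbols was 5.11 points for GAS5 against NC, 4.94 for siYAP against NC and 5.44 for GAS5 against siYAP, beside medians of 4.18, 6.25 and 4.80 over the 5 readers.

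YTHDF3 had the largest distance of the readers from NC in GAS5, 16.4 points. That value was exceeded by 12.2% of all these symbols and by 17.1% of those with at least 5 transcripts above 0. YTHDF3 was 10.1 points from NC in siYAP and 15 points from GAS5 to siYAP. With shares of FPKM its distance from NC in siYAP was 17.2 points. YTHDF2 was 11.7 points from NC in GAS5 and 11.3 in siYAP, but 4.18 points apart between GAS5 and siYAP. NC is the same mean in both comparisons, so the 2 distances of YTHDF2 are not independent. YTHDF1 showed the reverse order, with 4.18 points from NC in GAS5, 6.25 in siYAP and 10.3 between GAS5 and siYAP. These values rest on the assembled form, and without it they were 1.63, 0.219 and 1.41 points. YTHDC1 was 1.98 points from NC in GAS5 and 5.55 in siYAP. YTHDC2 moved least, by 1.17 and 0.287 points, distances that 83.7% and 93.3% of symbols exceeded.

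**Figure D3:**
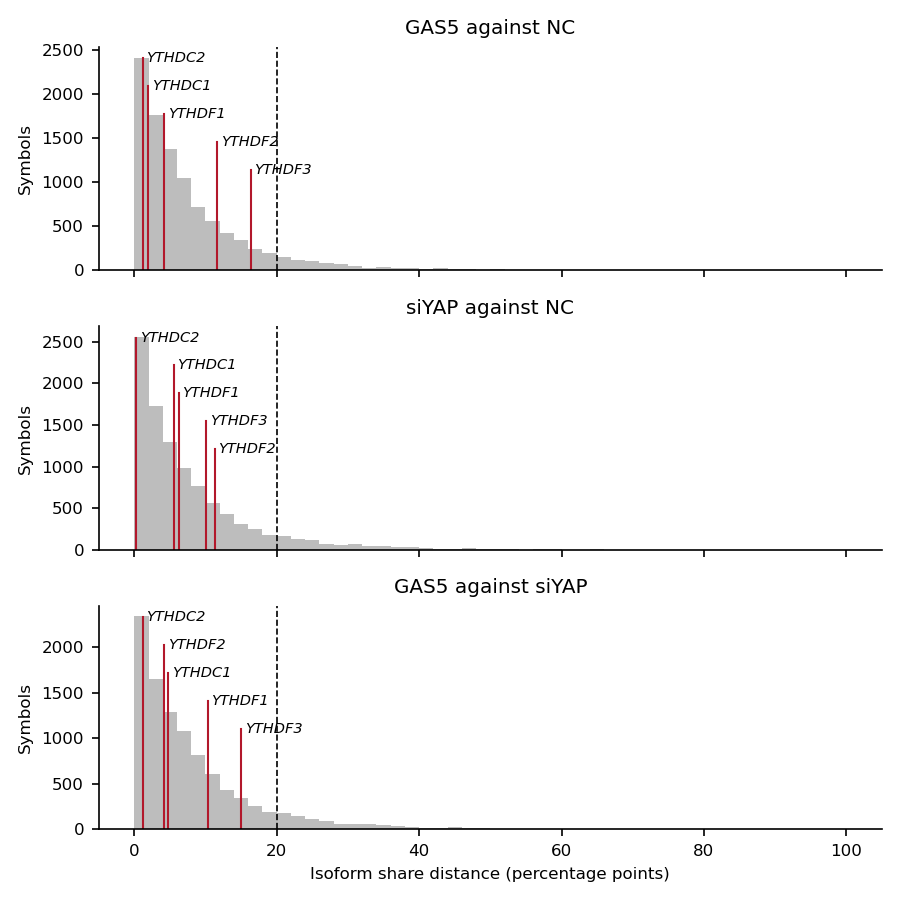
Number of symbols by isoform share distance in percentage points, in bins of 2 points, for each pair of groups over 9907 symbols, with a red line at each reader and a dashed line at 20 points. All 5 readers lie left of the dashed line in all 3 panels, with YTHDF3 the farthest right between GAS5 and NC at 16.4 points.

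In YTHDF1, the assembled transcript TCONS_00091636 held most of the count. It stood at 1101 mean counts in NC, 1122 with GAS5 and 1061 with siYAP, and YTHDF1-202, the full Ensembl form of 559 residues, at 589, 500.1 and 739. The share of TCONS_00091636 was therefore 65.1% in NC (63.4% to 66.6%), 68.7% with GAS5 (67.1% to 70.3%) and 58.8% with siYAP (57.2% to 60.4%), and that of YTHDF1-202 was 34.8%, 30.6% and 41.0%. GAS5 and siYAP stood on opposite sides of NC, and the 3 counting intervals did not overlap. The ratio of count to FPKM, which gives a length, puts TCONS_00091636 near 3031 bases, beside 3301 bases annotated for YTHDF1-202. The tables describe it as a match to the human YTHDF1 protein, and its exons are not known here. YTHDF1-201, whose frame of 156 bases leaves out the long coding exon shown above, had 2.13 mean counts in NC, 10.1 with GAS5 and 4.31 with siYAP, a share of at most 0.622%.

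**Figure D4:**
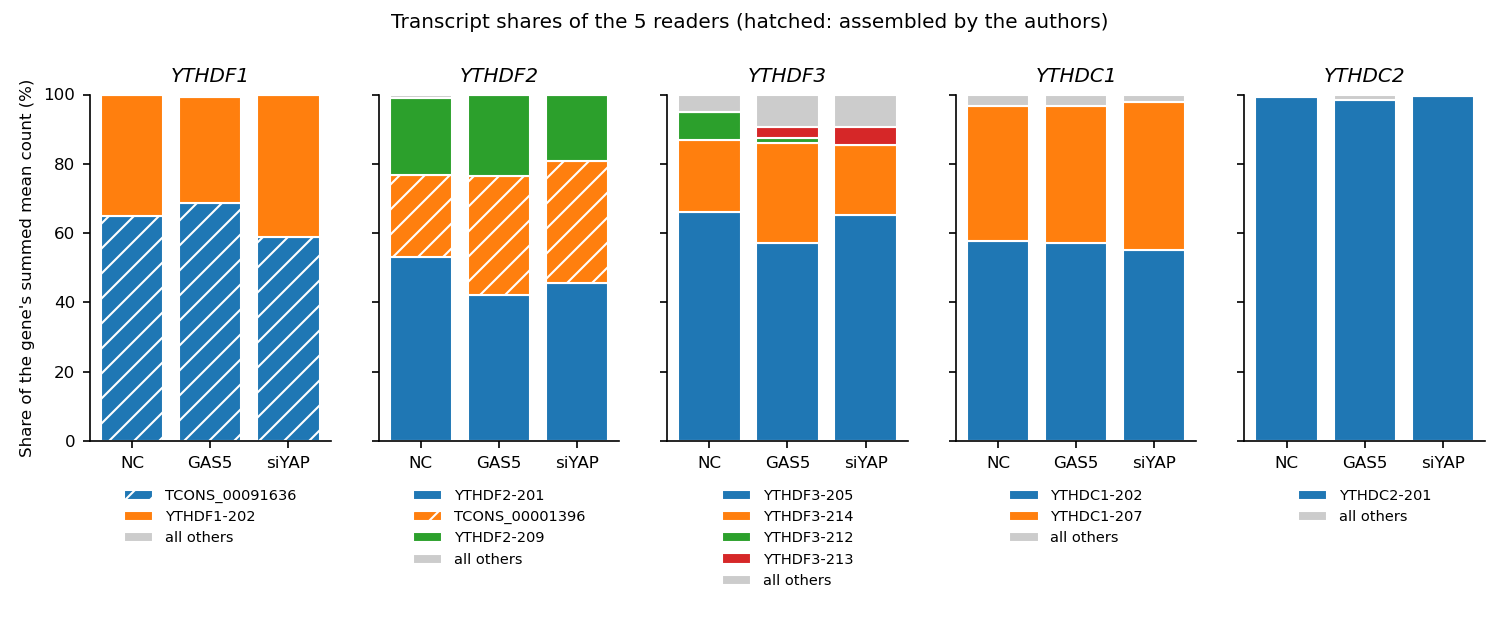
Share of each reader's summed mean count taken by each transcript with at least 5% in a group, in percent, stacked for NC, GAS5 and siYAP, with assembled transcripts hatched and all others in grey. TCONS_00001396 of YTHDF2 goes from 23.9% in NC to 34.3% in GAS5 and 35.1% in siYAP, and YTHDC2-201 holds 98.4% or more of its gene in every group.

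YTHDF2 divided its count among 3 forms. YTHDF2-201 stood at 1829 mean counts in NC, 1491 with GAS5 and 1604 with siYAP. The assembled TCONS_00001396 stood at 824 in NC, 1212 with GAS5 and 1236 with siYAP, and YTHDF2-209 (ENST00000542507) at 763, 823 and 676. Both treated groups thus had less of YTHDF2-201 and more of the assembled form than NC. The share of YTHDF2-201 was 53.0% in NC (51.8% to 54.2%), 42.2% with GAS5 (41.1% to 43.4%) and 45.6% with siYAP (44.4% to 46.8%). That of TCONS_00001396 was 23.9% in NC (22.9% to 24.9%), 34.3% with GAS5 (33.2% to 35.4%) and 35.1% with siYAP (34.0% to 36.3%). The counting intervals of the treated groups overlapped each other for TCONS_00001396 and not that of NC. The log2 fold change of TCONS_00001396 was 0.66 in GAS5 and 0.70 in siYAP, short of 2-fold, and that of YTHDF2-201 was -0.19 and -0.07. YTHDF2-201 and YTHDF2-209 encode the same 579 residues and differ in the leader, which has 362 bases in the first and 263 in the second, and their joint share was 75.1% in NC, 65.6% with GAS5 and 64.8% with siYAP. The length of TCONS_00001396 from the ratio of count to FPKM was near 2542 bases, beside 2925 and 2825 annotated for these forms. Its symbol in the tables rests on a match to a hypothetical protein of a macaque, so whether it carries the whole reading frame is not known here. Without the assembled form the distance of YTHDF2 from NC was 6.46 points in GAS5 and 1.30 in siYAP.

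The form with the later start codon, YTHDF2-208, encodes 529 residues. It had 29.1 mean counts in NC and was listed at 0 in GAS5 and siYAP. A listed 0 of a single form is an estimate, like its other values, so no fold is given against it. It held 0.842% of the NC count, and 28 of its 2689 stretches of 31 bases occur in no other listed Ensembl form. YTHDF2-207 had 7.14 mean counts or fewer in every group, and YTHDF2-203 was listed at 0 throughout.

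YTHDF3 had the most listed forms and the largest turnover among its minor ones. YTHDF3-205 (ENST00000539294), which encodes 585 residues, stood at 1022 mean counts in NC, 924 with GAS5 and 748 with siYAP. YTHDF3-214 (ENST00000621890), whose frame of 534 residues starts within the long coding exon, stood at 319.9 in NC, 467 with GAS5 and 231 with siYAP. GAS5 was the group that differed in shares: YTHDF3-205 held 66.2% in NC (64.5% to 67.8%), 57.1% with GAS5 (55.4% to 58.8%) and 65.3% with siYAP (63.3% to 67.2%), and YTHDF3-214 held 20.7% (19.3% to 22.2%), 28.9% (27.4% to 30.5%) and 20.2% (18.6% to 21.9%). The log2 fold changes of YTHDF3-205 were -0.04 in GAS5 and -0.33 in siYAP, and those of YTHDF3-214 were 0.65 and -0.35, so in siYAP both main forms lay about as far below NC as their sum. YTHDF3-205, YTHDF3-216 and YTHDF3-209 end within 1 base of the distal end of the gene. Together they held 67.0% in NC, 59.1% with GAS5 and 65.3% with siYAP. YTHDF3-201 was not counted with them, although it ends 341 bases short of that end, against 2619 for YTHDF3-214. YTHDF3-201 held 0% in NC, 3.62% with GAS5 and 0.723% with siYAP. Counting it would make the difference between GAS5 and NC smaller. YTHDF3-205 has 3083 bases after its coding stretch, and YTHDF3-214 has 464. Because of that difference in length, FPKM gave another order, in which YTHDF3-205 held 39.7%, 32.7% and 36.1% of the summed FPKM and YTHDF3-214 held 27.8%, 37.2% and 25.1%, so that the leading form in GAS5 was YTHDF3-214 by FPKM and YTHDF3-205 by count.

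Some minor forms of YTHDF3 went to or from 0. YTHDF3-212 (ENST00000621413) had 122 mean counts in NC, 23.0 with GAS5 and 0 with siYAP, a log2 fold change of -2.20 in GAS5. YTHDF3-213 (ENST00000621820) was listed at 0 in NC and had 52.9 with GAS5 and 57.3 with siYAP. These forms share 1 coding sequence of 588 residues and differ only outside it, in a leader of 354 bases against 197 and in the end of the gene. Their joint count was 122 in NC, 76.0 with GAS5 and 57.3 with siYAP, or 7.90% (6.999% to 8.90%), 4.70% (4.02% to 5.48%) and 5.01% (4.19% to 5.98%) of YTHDF3. The reversal between single forms was thus much larger than the difference in the frame they encode. YTHDF3-201 (ENST00000517371), the form without the long coding exon of 1599 bases, was listed at 0 in NC and had 58.6 mean counts with GAS5 and 8.29 with siYAP. It held 3.62% of YTHDF3 in GAS5 (3.03% to 4.32%) and 0.723% in siYAP. Its frame of 156 bases encodes 52 residues, as many as that of YTHDF1-201. The latter had at most 10.1 mean counts in a group and did not pass the filter on low counts. The 3 YTHDF3 forms have 3, 27 and 29 stretches of 31 bases of their own. Of 29217 transcripts with at least 50 mean counts in a group, 3.65% were listed at 0 in another. Among the readers it was 3 of 14, all in YTHDF3. These entered through the group where they were high and are forms of 1 gene that share reads. The count is therefore no result about the readers.

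**Figure D5:**
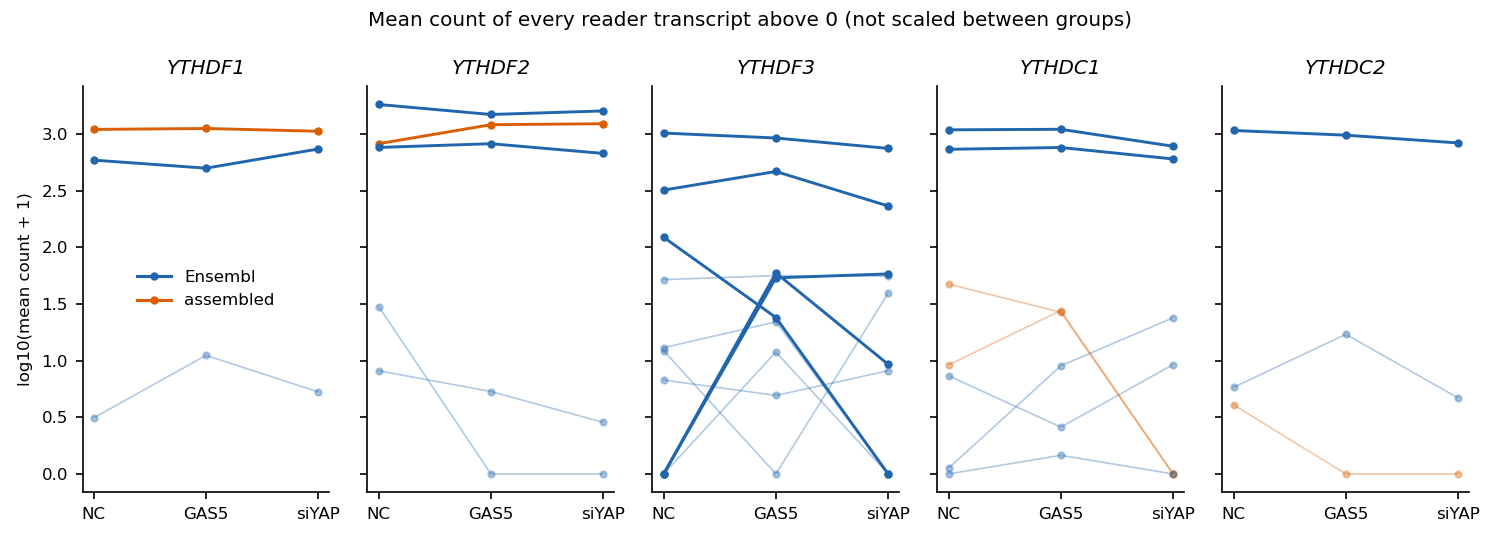
Mean count of each reader transcript above 0, as log10 of the mean count plus 1 and not scaled between groups, joined across NC, GAS5 and siYAP, with Ensembl forms in blue, assembled forms in orange and forms outside the naming rule faint. Lines crossing down to or up from 0 are frequent in YTHDF3 (YTHDF3-212 from 122 in NC to 0 in siYAP), while the leading form of each gene runs nearly flat.

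The remaining forms of YTHDF3 were small. YTHDF3-211, of 545 bases, had 51.0 mean counts in NC, 55.3 with GAS5 and 54.9 with siYAP, and its short length gave it 18.4% to 25.1% of the summed FPKM on 3.30% to 4.79% of the count. YTHDF3-215 had 11.2 mean counts in NC, 0 with GAS5 and 38.4 with siYAP. YTHDF3-216, YTHDF3-209 and YTHDF3-206 had at most 21.0 in any group, and YTHDF3-207 and YTHDF3-210 were listed at 0 throughout.

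The main forms of YTHDC1 differed little in share between the groups. YTHDC1-202, which skips the exon of 54 bases shown above, stood at 1092 mean counts in NC, 1104 with GAS5 and 782 with siYAP, and YTHDC1-207, which includes it, at 735, 762 and 603. Both were lower in siYAP, with log2 fold changes of -0.37 and -0.17, beside 0.12 and 0.16 in GAS5. Their shares were 57.8% and 38.9% in NC, 57.2% and 39.5% in GAS5, and 55.2% and 42.6% in siYAP. The exon of 54 bases is also in YTHDC1-201 (ENST00000344157), which encodes 727 residues and lacks the 24 bases. Over these 3 forms, the exon was included in 40.2% of the count in NC (38.6% to 41.8%), 41.1% with GAS5 (39.5% to 42.7%) and 44.5% with siYAP (42.7% to 46.3%). The intervals of NC and GAS5 overlapped, and those of NC and siYAP did not. The 2 assembled forms of YTHDC1, whose exons are not known here, were left out of these shares. They held 2.90% of the YTHDC1 count in NC, 2.72% with GAS5 and 0% with siYAP. Whether the intervals of NC and siYAP would stay apart with them is therefore not known. The error of dividing reads among these forms was not measured and is not in the intervals.

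Among the minor forms of YTHDC1, YTHDC1-201 had 0.125 mean counts in NC, 8.02 with GAS5 and 22.9 with siYAP. This form has 3715 bases after its coding stretch, against 781 in YTHDC1-202. The assembled TCONS_00110132 had 46.5 mean counts in NC, 25.8 with GAS5 and 0 with siYAP, and TCONS_00110135 had 8.18, 26.7 and 0. From the ratio of count to FPKM these 2 assembled forms are near 6145 and 6492 bases long, close to the 6232 bases of YTHDC1-201. YTHDC1-201 and the assembled forms differed in direction between siYAP and NC, and their combined count was 54.8 in NC, 60.5 with GAS5 and 22.9 with siYAP.

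YTHDC2 was carried by 1 form. YTHDC2-201 (ENST00000161863), of 1430 residues, stood at 1078 mean counts in NC, 979 with GAS5 and 836 with siYAP, or 99.3%, 98.4% and 99.6% of the gene. YTHDC2-207, with a coding stretch of 739 codons, had 4.82, 16.1 and 3.70 mean counts, and the assembled TCONS_00113842 had 3.08 in NC and 0 in both treated groups.

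Single transcripts passed 2-fold more readily than gene sums. Of the 33 reader transcripts, 19 passed the filter on low counts for GAS5 against NC and 17 for siYAP against NC. In GAS5 against NC 6 were past 2-fold, 4 higher (YTHDF3-201, YTHDF3-213, TCONS_00110135 and YTHDC2-207) and 2 lower (YTHDF2-208 and YTHDF3-212), with a background of 20.1% of 41340 transcripts. In siYAP against NC 6 were past 2-fold, 3 higher (YTHDF3-213, YTHDF3-215 and YTHDC1-201) and 3 lower (YTHDF2-208, YTHDF3-212 and TCONS_00110132), with a background of 20.8% of 40876. A transcript that passed the filter only through its higher group had to differ, and 3 of the 6 in GAS5 and 4 of the 6 in siYAP were listed at 0 in 1 of the groups, so these counts are no result about the readers. Of the 11 reader transcripts that had 10 mean counts or more in each group, 0 were past 2-fold in either comparison, and the largest log2 fold changes were those of TCONS_00001396, 0.66 and 0.70.

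The genes around the readers were described by their sums in 5 lists. Of the 11 writers and erasers, the enzymes that set or remove m6A, 0 passed 2-fold in either comparison. Their median log2 fold change was 0.05 in GAS5, where the lowest was METTL14 at -0.14 and the highest METTL3, the catalytic writer, at 0.23. In siYAP the median was -0.25, with 9 of 11 below 0, METTL3 the lowest at -0.52 and the demethylase FTO the highest at 0.17. The median over all gene sums was 0.00097 in GAS5 and -0.00018 in siYAP.

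Of the 10 subunits of the CCR4-NOT deadenylase that YTHDF2 recruits, 0 passed 2-fold, with a median of -0.04 in GAS5 (CNOT1 -0.24 to CNOT9 0.07) and -0.16 in siYAP (CNOT6 -0.26 to CNOT3 0.0026). Of the 10 genes of the RNase P and MRP route, by which YTHDF2 targets can be cleaved, 0 passed 2-fold. All 10 lay above 0 in GAS5, with a median of 0.23 (RPP14 0.01 to RPP25 0.56), and 3 of 10 did in siYAP, with a median of -0.03 (POP1 -0.31 to RPP25 0.22). The 13 subunits of eIF3, a translation initiation factor linked to YTHDF1, had medians of 0.03 in GAS5 (EIF3A -0.25 to EIF3G 0.27) and 0.06 in siYAP (EIF3A -0.25 to EIF3F 0.33), with 0 past 2-fold. Of the 11 partners of YTHDC1 and YTHDC2, 10 passed the filter, and MEIOC, the meiotic partner of YTHDC2, was listed at 0 in every group. Their median was 0.14 in GAS5, where 0 passed 2-fold and SRSF7, a splicing factor, was the highest at 0.67 and RBM46 the lowest at -0.82. In siYAP the median was -0.13, with EMD the highest at 0.30. RBM46, an RNA-binding protein of germ cells, was the only 1 past 2-fold, at -1.23. It had 14 mean counts in NC, 6.50 with GAS5 and 4.50 with siYAP. In both comparisons it passed the filter only through NC, its higher group. It therefore had to be lower in the treated groups, and its values are no result about the partners.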

How the data were processed

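The deposited expected counts are estimated counts per mRNA transcript, which the authors averaged within each group. The deposited FPKM values were averaged the same way, with 0 replaced by 0.001, which was read as 0 here. The submitters' processing notes name TopHat2 2.1.1. The counting tool and genome build are not given in the sources used here. Deposited columns of the authors' own log2 fold changes, p-values and FDR were not used. Tables were joined by transcript identifier, and 339 transcripts without a symbol (0.195% to 0.224% of counts) entered no gene sum. Gene sums and transcripts were each filtered with filterByExpr (minimum count 10) and scaled by TMM (edgeR 4.0.16, R 4.3.3) on the pair of means, with a prior count of 2. The edgeR test that was planned for libraries could not be run on means. A fold of 2 or a share distance of 20 percentage points counted as a call. Depth was 25521577 to 27206123 summed mean counts per group, and the Wilson and Poisson intervals at 95% cover counting error only. Exons, coding lengths and sequences came from GENCODE 29 (GRCh38), whose lengths the ratio of count to FPKM matched, to within 1.67% of the median over reader transcripts of at least 50 counts. The scaling and the share distance were tested on simulated counts, drawn separately for each gene or transcript. That test did not cover the division of reads among forms or the spread between cultures. Forms with at least 5% of a gene in a group, or past 2-fold with at least 50 mean counts, were described singly, and other forms named were picked with their values in view. The members and lists were chosen with earlier results of these data known. Alternatives were DESeq2 1.42.0 size factors, TMM on the 3 means, total counts, no filter, a prior of 0.5, FPKM, Ensembl forms alone and stricter minimum counts.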

Additional observations from a re-analysis of the deposited data

How the results depend on the processing

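No paired analysis was possible because the values used here are group means, and for the same reason leaving out each replicate could not be run. Of 163 values under alternatives, 135 stayed within their counting interval, on their side of the threshold or within 1.5 times their count. The gene sums kept their direction under DESeq2 size factors, TMM on the 3 means, total counts, no filter, a prior of 0.5 and summed FPKM, with a largest shift of 0.08 log2. With Ensembl forms alone, the log2 fold change of YTHDF1 was -0.10 in GAS5 and 0.41 in siYAP and that of YTHDF2 was -0.072 and -0.12, since that setting drops the assembled forms that hold 58.8% to 68.7% and 23.9% to 35.1% of these genes. No reader reached 20 or 30 points of distance under any setting, and at 30 points the background was 2.97%, 3.26% and 3.28% of symbols. YTHDF2-201 held 50.3% of the summed FPKM in NC, 39.6% with GAS5 and 43.0% with siYAP, and 69.6%, 64.3% and 70.3% of the count with Ensembl forms alone. By FPKM YTHDF3-205 held 39.7%, 32.7% and 36.1%, YTHDC1-202 56.0% in NC and 52.5% in siYAP, and YTHDC2-201 98.2%, 96.2% and 98.9%. With Ensembl forms alone YTHDC1-202 held 59.6% in NC and 58.8% in GAS5, and YTHDC2-201 99.6% in NC. Without the filter 12 reader transcripts passed 2-fold in GAS5 and 11 in siYAP, against 6 and 6, and with 10 mean counts or more in each group 0 and 0. The leading form of YTHDF1 is assembled and has no share with Ensembl forms alone. Between 1680 and 7061 reads stood behind each gene sum, and the error of dividing them among forms could not be measured.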
